A study of Rattus norvegicus with 28 samples.

Results

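The genes described here handle calcium at the sarcoplasmic reticulum (SR) of heart muscle, and they were read in the left ventricle of hypertensive transgenic rats and of controls. The set names 9 genes (Atp2a2, Pln, Sln, Casq2, Hrc, Ryr2, Jph2, Slc8a1 and Camk2d), chosen by their role in the calcium cycle. They were chosen with earlier results of these data known. A gene is measured where an array probe carries its symbol alone. By that rule 6 of the 9 had a probe, 1 probe each, out of 14557 genes with such a probe. Ryr2, Slc8a1 and Camk2d had no such probe and were not analysed here. All 6 measured genes passed the filter on dim probes and stood among the 11493 genes tested.

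The study profiled 28 male rats, 1 one-colour array per left ventricle. Treated dTGR (12 arrays) are double transgenic rats of the line SD-Tg(hAGT)L1623xTg(hREN)L10J, which carries human angiotensinogen and human renin transgenes, given BAY 41-8543, a stimulator of soluble guanylate cyclase, at 3 mg/kg/day by daily gavage. Vehicle dTGR (8 arrays) are rats of the same line given Transcutol, Cremophor-EL and water in parts of 10, 20 and 70. The SD group (8 arrays) holds wild-type Sprague Dawley rats without treatment. Both dTGR groups are labelled as a model of heart failure with preserved ejection fraction induced by hypertension. The age at assignment was 3.5 weeks in all 3 groups. Gavage began at 4 weeks of age and all rats were sacrificed at 7 weeks, although the design text gives 4 weeks of treatment. SD rats are labelled as without treatment, and the animal numbers form separate blocks (4426 to 4437 for treated dTGR, 4401 to 4413 for vehicle dTGR, 3910 to 3917 for SD), so genotype or treatment cannot be told apart from cohort and handling.

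In each heartbeat calcium leaves the SR through ryanodine receptors, activates the myofilaments and is pumped back by the SR calcium ATPase SERCA2, the product of Atp2a2. Phospholamban (Pln) and sarcolipin (Sln) are small membrane proteins that inhibit the pump, calsequestrin (Casq2) and the histidine-rich calcium binding protein (Hrc) buffer calcium in the SR lumen, and junctophilin (Jph2) ties the SR to the transverse tubule. A lower amount of SERCA2 and of junctophilin is a well known feature of failing myocardium.

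The upstream regions of the genes that were lower in vehicle dTGR than in SD (Atp2a2, Hrc and Jph2) are shown beside that of Casq2, which passed the test in none of the comparisons, so that their base composition can be compared. They are RefSeq sequences of the rat build GRCr8, 5' to 3' on the strand of the gene, from 250 bases before to 50 after its annotated start. Capitals mark matches, on either strand, to the E-box (CANNTG), the GC box (GGGCGG), the MCAT element (CATTCC), the TATA element (TATAAA) and the MEF2 motif.
Atp2a2 (chr12:39733269-39733568, strand +): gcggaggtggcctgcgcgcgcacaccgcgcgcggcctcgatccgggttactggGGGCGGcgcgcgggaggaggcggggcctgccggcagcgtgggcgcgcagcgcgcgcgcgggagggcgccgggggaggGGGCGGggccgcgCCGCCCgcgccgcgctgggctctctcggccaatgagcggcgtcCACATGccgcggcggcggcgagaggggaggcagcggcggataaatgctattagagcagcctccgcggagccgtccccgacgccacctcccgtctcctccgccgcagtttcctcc
Casq2 (chr2:192214306-192214605, strand +): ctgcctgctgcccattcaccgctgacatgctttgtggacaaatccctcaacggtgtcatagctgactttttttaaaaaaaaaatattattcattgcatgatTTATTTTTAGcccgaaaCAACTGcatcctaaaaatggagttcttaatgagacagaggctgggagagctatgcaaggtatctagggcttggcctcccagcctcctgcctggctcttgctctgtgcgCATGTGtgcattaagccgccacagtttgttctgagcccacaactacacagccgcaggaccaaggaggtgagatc
Hrc (chr1:104949500-104949799, strand +): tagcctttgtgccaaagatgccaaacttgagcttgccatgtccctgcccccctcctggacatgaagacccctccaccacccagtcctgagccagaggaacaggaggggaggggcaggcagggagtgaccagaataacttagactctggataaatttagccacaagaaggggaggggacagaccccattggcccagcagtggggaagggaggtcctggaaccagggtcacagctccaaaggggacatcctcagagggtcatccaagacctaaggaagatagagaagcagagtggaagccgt
Jph2 (chr3:172477872-172478171, strand -): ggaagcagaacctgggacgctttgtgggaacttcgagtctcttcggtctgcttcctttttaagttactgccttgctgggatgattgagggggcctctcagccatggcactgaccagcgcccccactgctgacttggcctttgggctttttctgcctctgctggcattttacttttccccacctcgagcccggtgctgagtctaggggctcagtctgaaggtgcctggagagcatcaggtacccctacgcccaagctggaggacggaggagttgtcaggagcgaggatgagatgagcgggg
The Atp2a2 region held 1 E-box and 3 GC boxes, and the Casq2 region held 2 E-boxes and 1 MEF2 match that did not overlap them. None of these letters were found in the Hrc and Jph2 windows. Of 33469 rat regions of this length, 72.1% held an E-box, 33.1% a GC box, 14.2% the MCAT letters, 14.2% the TATA letters and 3.29% a MEF2 match. The G and C content was 79% for Atp2a2, with 52 CpG pairs, and 98.8% of all regions had a lower content. It was 56.7% for Hrc with 1 CpG pair, 58% for Jph2 with 10 and 47.7% for Casq2 with 6, against a median of 51.7% and 7 CpG pairs over all regions. The region of Pln, which was called lower only in treated dTGR against SD, is not printed. It had 45% G and C, 4 CpG pairs and 2 E-boxes, so not all genes lower in dTGR lay above the median content.

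Against SD, the vehicle dTGR ventricle had less Jph2, Hrc and Atp2a2 RNA, while Pln, Casq2 and Sln did not pass the test. The differences were modest, from 1.14-fold for Atp2a2 to 1.53-fold for Jph2. Of the 6 genes, 0 were higher, 3 lower and 3 were not called, where a call is a limma p under 0.05 after Benjamini-Hochberg adjustment over all genes. Among all genes tested 11.7% were called lower and 12.1% higher in this comparison. The median log2 difference of the 6 genes was -0.14, and that of all genes was 0.0033. Because the set was chosen with earlier results known, its contrasts with all genes are descriptions only, here and below. In bulk tissue, fewer cells of a type and less RNA per cell cannot be told apart.

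Treated dTGR had more Jph2 RNA than vehicle dTGR and no other called difference among the 6 genes. Here 1 gene was called higher, 0 lower and 5 were not called, and 2 had an unadjusted p under 0.05. Over all genes 5.37% were called higher and 4.42% lower. The median log2 difference was 0.03 for the 6 genes and 0.01 for all genes.

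In treated dTGR against SD, Atp2a2, Hrc and Pln were lower, 0 genes were higher and 3, Jph2 among them, were not called. Jph2 was nonetheless below the SD mean in 12 of 12 treated arrays. It was called lower in 1 of 11 other settings, when treated dTGR and SD were fitted alone (-0.24, limma adjusted p = 0.00469). Jph2 stayed uncalled in the other 10 and in 20 of 20 fits that left out 1 array. The Pln call was lost in 12 of 20 fits that left out 1 array and under 3 of 11 other settings. Over all genes 7.87% were called lower and 9.54% higher. The median log2 difference was -0.23 for the 6 genes and 0.01 for all genes. The 3 comparisons share arrays, so their differences are set side by side below and no overlap between them is given as a result.

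**Figure D1:**
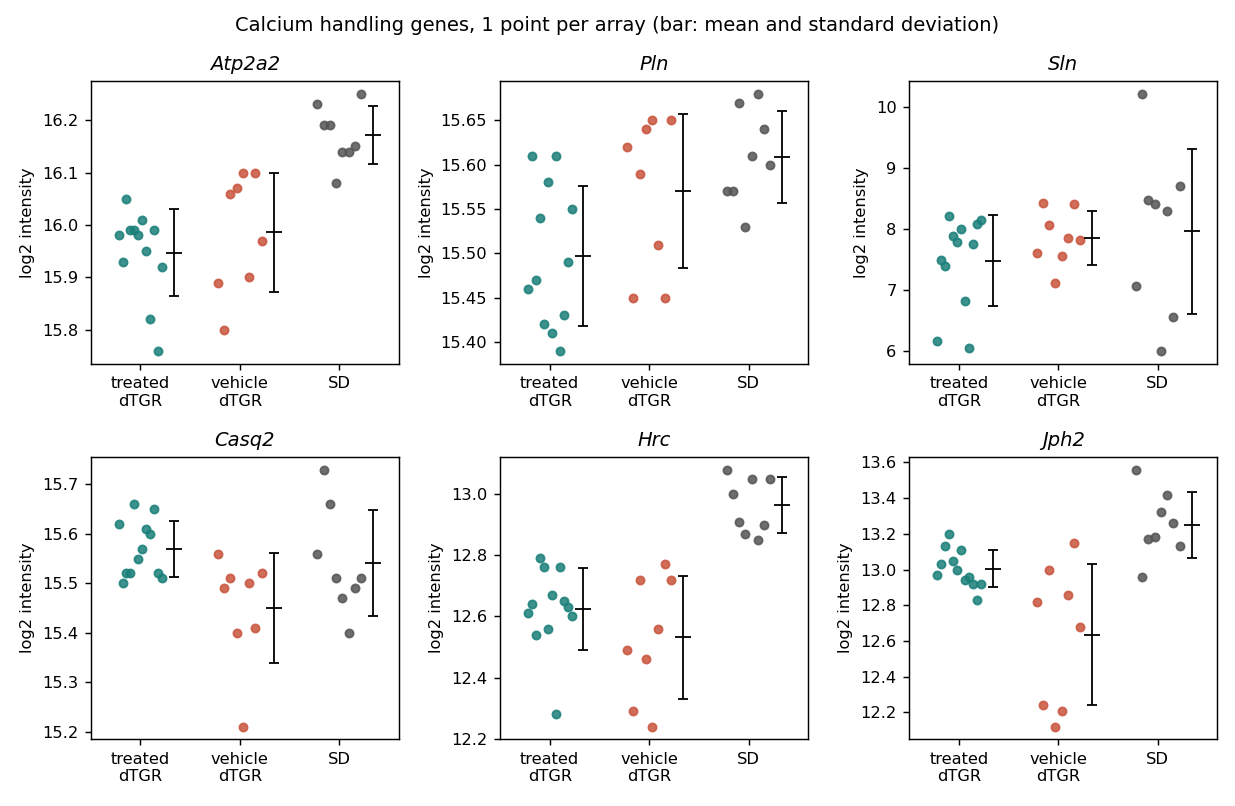
Log2 intensity of the 6 measured calcium handling genes (vertical axes, 1 panel per gene) in treated dTGR, vehicle dTGR and SD, 1 point per array, with the mean and standard deviation as a black bar. Hrc lies at or below 12.79 in every dTGR array and at or above 12.85 in every SD array, and Jph2 spreads from 12.12 to 13.15 in vehicle dTGR.

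The pump gene Atp2a2 had one of the brightest probes of the array, with 34 of 36685 probes brighter by mean log2 intensity. Its log2 intensity ran from 15.76 to 16.05 in treated dTGR (median 15.98), from 15.80 to 16.10 in vehicle dTGR (median 16.02) and from 16.08 to 16.25 in SD (median 16.17). Every treated array lay below every SD array, and vehicle arrays overlapped SD arrays at their upper end, where vehicle replicates 5 and 7 reached 16.10. Non-overlapping groups with the treated arrays lower than SD were found for 1.19% of all genes, and with the treated arrays higher for 1.81%.

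Group means of Atp2a2 were 15.95 ± 0.08 in treated dTGR (standard deviation, n = 12), 15.99 ± 0.11 in vehicle dTGR (n = 8) and 16.17 ± 0.06 in SD (n = 8). In vehicle dTGR it was lower than in SD by a log2 difference of -0.18 ± 0.05 (standard error, 1.14-fold, limma adjusted p = 0.00321), with 8 of 8 arrays below the SD mean. In treated dTGR it was lower than in SD by -0.22 ± 0.04 (1.17-fold, limma adjusted p = 0.00025), with 12 of 12 arrays below the SD mean. Between treated and vehicle dTGR the difference of Atp2a2 was -0.04 ± 0.04, with a 95% interval from -0.12 to 0.05 and an adjusted p of 0.653. A probe stands for the whole gene here, so the splice forms of SERCA2 were not read apart.

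Phospholamban is the main inhibitor of SERCA2 in the ventricle, and its phosphorylation releases the pump. The log2 intensity of Pln ran from 15.39 to 15.61 in treated dTGR (median 15.48), from 15.45 to 15.65 in vehicle dTGR (median 15.60) and from 15.53 to 15.68 in SD (median 15.60). The 3 groups overlapped. In treated dTGR, Pln was lower than in SD by -0.11 ± 0.04 (1.08-fold, limma adjusted p = 0.0421), with 10 of 12 arrays below the SD mean.

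The Pln call against SD was a narrow one. It was lost when SD replicate 3, 5, 6, 7 or 8 or treated replicate 1, 3, 5, 7, 9, 10 or 11 was left out, at adjusted p of up to 0.0891, while the difference stayed between -0.12 and -0.10. It was also lost with a prior without the intensity trend (adjusted p = 0.0963), with arrays centred on their medians (0.0652) and with every probe tested on its own (0.0627). Vehicle dTGR differed in Pln from SD by -0.04 ± 0.04 (95% interval -0.13 to 0.05, adjusted p = 0.577), and treated from vehicle dTGR by -0.07 ± 0.04 (-0.15 to 0.01, adjusted p = 0.264).

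Within an array, the log2 ratio of Atp2a2 to Pln compares the change of the pump with that of its inhibitor, while its absolute size depends on the probes. The ratio ran from 0.27 to 0.60 in treated dTGR, from 0.27 to 0.65 in vehicle dTGR and from 0.45 to 0.66 in SD. It averaged 0.45 ± 0.11 in treated dTGR, 0.42 ± 0.12 in vehicle dTGR and 0.56 ± 0.07 in SD (standard deviations). Of the arrays, 7 of 12 treated and 6 of 8 vehicle arrays lay below the lowest SD array, and all groups overlapped. The difference of means was -0.15 for vehicle dTGR against SD, 0.04 for treated against vehicle dTGR and -0.11 for treated dTGR against SD, given without a test.

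Sarcolipin inhibits SERCA and is known in rodents mainly from the atria, with little in the ventricle. Its probe was dim, with 13477 probes brighter. The log2 intensity of Sln ran from 6.05 to 8.22 in treated dTGR (median 7.77), from 7.12 to 8.43 in vehicle dTGR (median 7.84) and from 6.0 to 10.22 in SD (median 8.36). The SD arrays spanned 4.23 log2 units with both the lowest and the highest array of the series, so the ranges of both dTGR groups lay inside that of SD.

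None of the comparisons called Sln. The difference was -0.10 ± 0.41 for vehicle dTGR against SD (95% interval -0.94 to 0.73, adjusted p = 0.897), -0.38 ± 0.37 for treated against vehicle dTGR (-1.14 to 0.39, adjusted p = 0.613) and -0.48 ± 0.37 for treated dTGR against SD (-1.24 to 0.28, adjusted p = 0.441). The first of these intervals holds changes of either sign as large as that of Jph2 in the same comparison. Without SD replicate 2 the vehicle difference of Sln was 0.22 (adjusted p = 0.74), so its sign rested on that array. The difference was 0.00035 without SD replicate 8 and 0.00033 without vehicle replicate 4. The log2 ratio of Atp2a2 to Sln, which averaged 8.46 ± 0.74 in treated dTGR, 8.13 ± 0.49 in vehicle dTGR and 8.21 ± 1.35 in SD, likewise overlapped among the groups.

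SD replicate 2, the array with the most Sln, also had the most of Myl7, the myosin light chain of the atria, at 11.59. SD replicate 7, with a Sln level of 6.56, had the least Myl7 among the SD arrays, 8.41, while replicate 5, with the least Sln, had 9.84. SD replicate 1 had 10.62 for Myl7 but 7.06 for Sln. Other atrial markers ranked the SD arrays in mixed ways. Replicate 2 had the most Dkk3 and Stard10 of the SD arrays, but not the most Nppa, Gja5, Kcna5, Kcnj3 or Kcnj5. Replicate 7 had the least Kcnj3 and Kcnj5 but the most Gja5 (9.10) and Kcna5 (9.93). Myl7 averaged 8.22 ± 0.59 in treated dTGR (standard deviation, n = 12), 8.44 ± 0.69 in vehicle dTGR (n = 8) and 10.21 ± 1.12 in SD (n = 8), and it was lower in vehicle dTGR than in SD by -1.77 ± 0.36 (limma adjusted p = 0.00037, 8 of 8 arrays). Of 10 atrial marker genes 8 were measured, and 1 was called higher and 4 lower in vehicle dTGR against SD. Over all genes 12.1% were called higher and 11.7% lower there. The higher atrial marker was Nppa, atrial natriuretic peptide, which ventricles also make under load. The summed intensity of these markers ran from 41635 to 92472 in treated dTGR, from 57370 to 90383 in vehicle dTGR and from 20305 to 54964 in SD, with Nppa in the sum. All 8 had group means above the filter level, and the part of atrial tissue in the Sln levels was not tested.

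**Figure D2:**
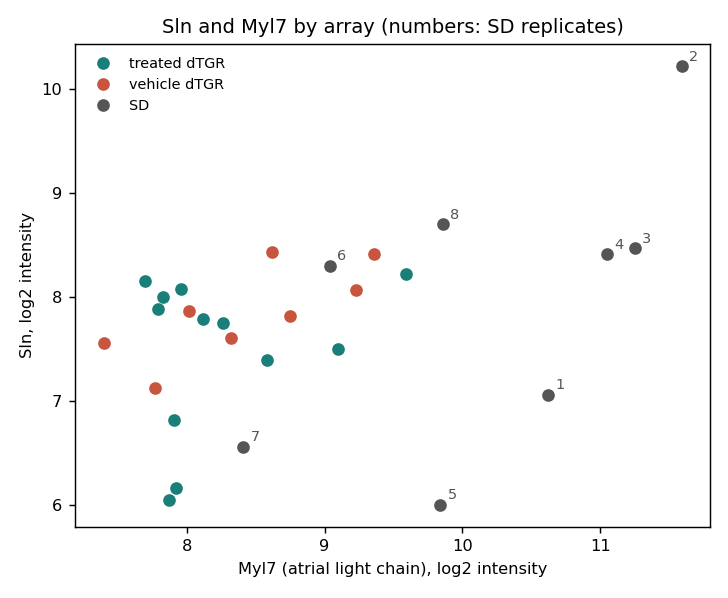
Log2 intensity of Sln (vertical axis) against that of the atrial light chain gene Myl7 (horizontal axis), 1 point per array, with SD replicates numbered. SD replicate 2 lies at the top right at 11.59 for Myl7 and 10.22 for Sln, and most dTGR arrays lie below 9 on the Myl7 axis.

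Calsequestrin 2 is the main calcium buffer of the cardiac SR and also acts on the ryanodine receptor. The log2 intensity of Casq2 ran from 15.50 to 15.66 in treated dTGR (median 15.56), from 15.21 to 15.56 in vehicle dTGR (median 15.49) and from 15.40 to 15.73 in SD (median 15.51). The groups overlapped, and vehicle replicate 5 was the lowest array. Casq2 was not called in any comparison. Its largest difference was 0.12 ± 0.04 between treated and vehicle dTGR (95% interval 0.03 to 0.21, unadjusted p = 0.00902 in limma, adjusted p = 0.0741), with 12 of 12 treated arrays above the vehicle mean. It differed by -0.09 ± 0.05 between vehicle dTGR and SD (-0.19 to 0.004, adjusted p = 0.166) and by 0.03 ± 0.04 between treated dTGR and SD (-0.06 to 0.12, adjusted p = 0.74).

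Hrc encodes a low-affinity calcium binding protein of the SR lumen that interacts with SERCA2 and triadin. The log2 intensity of Hrc ran from 12.28 to 12.79 in treated dTGR (median 12.64), from 12.24 to 12.77 in vehicle dTGR (median 12.53) and from 12.85 to 13.08 in SD (median 12.95). No array of either dTGR group reached the lowest SD array. Group means of Hrc were 12.62 ± 0.14 in treated dTGR (standard deviation, n = 12), 12.53 ± 0.20 in vehicle dTGR (n = 8) and 12.96 ± 0.09 in SD (n = 8). Such a gap on the lower side was found for 2.11% of all genes between vehicle dTGR and SD, and on the higher side for 1.96%, and of the 6 genes Hrc alone showed it there. Between treated dTGR and SD, Hrc and Atp2a2 showed it.

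Hrc was lower in vehicle dTGR than in SD by -0.43 ± 0.07 (1.35-fold, limma adjusted p = 3.68e-05) and in treated dTGR than in SD by -0.34 ± 0.07 (1.26-fold, limma adjusted p = 0.000364). Treated and vehicle dTGR differed in Hrc by 0.09 ± 0.07 (95% interval -0.04 to 0.23, adjusted p = 0.431). Leaving out any 1 array kept the vehicle difference between -0.47 and -0.39 and the treated difference against SD between -0.35 and -0.31, with the call retained each time.

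Junctophilin 2 holds the SR and the transverse tubule at the distance at which calcium channels and ryanodine receptors face each other. The log2 intensity of Jph2 ran from 12.83 to 13.20 in treated dTGR (median 12.98), from 12.12 to 13.15 in vehicle dTGR (median 12.75) and from 12.96 to 13.56 in SD (median 13.22). Vehicle replicates 2, 4 and 5 lay at 12.24, 12.12 and 12.21, below every other array of the series. Treated arrays overlapped vehicle arrays, and across all genes 0.0609% had every treated array above every vehicle array and 0 had every one below. The standard deviation of Jph2 was 0.11 in treated dTGR, 0.40 in vehicle dTGR and 0.19 in SD.

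In vehicle dTGR Jph2 was lower than in SD by -0.61 ± 0.11 (1.53-fold, limma adjusted p = 0.000105), with 8 of 8 arrays below the SD mean. In treated dTGR it was higher than in vehicle dTGR by 0.37 ± 0.10 (1.29-fold, limma adjusted p = 0.0179), with 12 of 12 arrays above the vehicle mean. Treated dTGR stood below SD by -0.24 ± 0.10 (95% interval -0.45 to -0.04, adjusted p = 0.0995), with 12 of 12 arrays below the SD mean. This difference was called when treated dTGR and SD were fitted alone (limma adjusted p = 0.00469). It was not called in 10 of 11 other settings or without any 1 array (limma adjusted p from 0.0591 to 0.22). The call of treated against vehicle dTGR was lost without vehicle replicate 2 (0.31, adjusted p = 0.0537), replicate 4 (0.30, adjusted p = 0.0648) or replicate 5 (0.31, adjusted p = 0.0596).

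**Figure D3:**
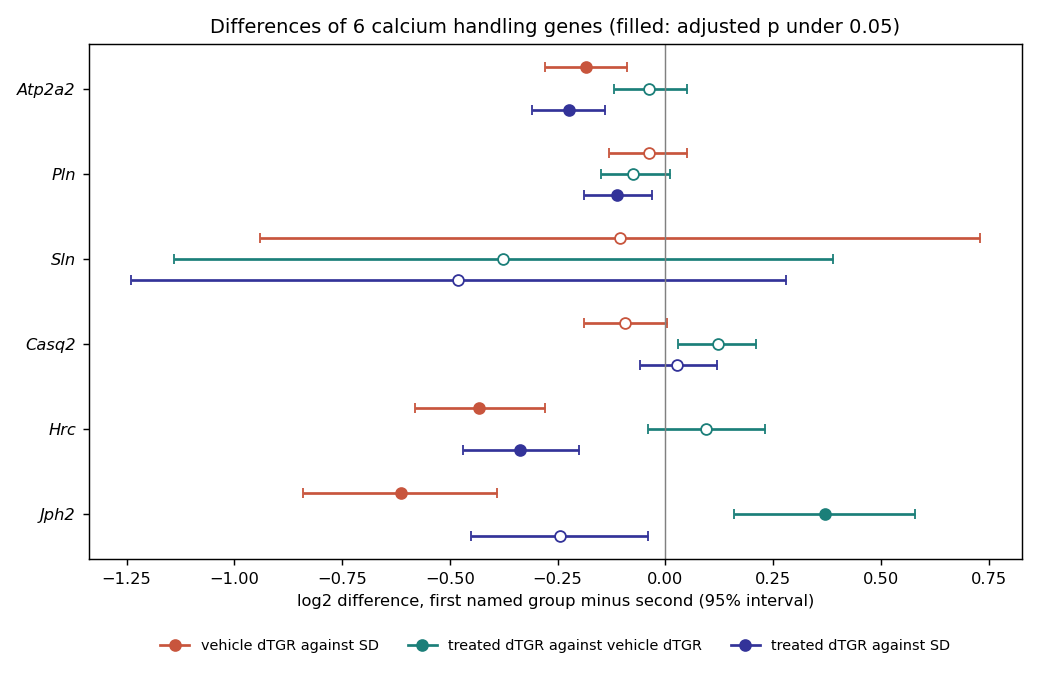
Log2 differences of the 6 genes with their 95% intervals (horizontal axis, first named group minus second), 1 colour per comparison, filled where the limma adjusted p is under 0.05. Jph2 lies at -0.61 for vehicle dTGR against SD and at 0.37 for treated against vehicle dTGR, and the intervals of Sln are the widest.

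The vehicle arrays were not alike as whole profiles. The first principal component of all genes tested held 19.0% of the variance, and vehicle replicates 6 and 7 scored -0.839 and -2.92, inside the range of treated dTGR from -7.94 to 4.72. Vehicle replicate 3 scored 10.2, and the other 5 vehicle arrays scored from 28.2 to 41.3. Those 5 arrays had the 5 lowest Jph2 values of the vehicle group, from 12.12 to 12.82, while replicates 3, 6 and 7 had 13, 12.86 and 13.15. Jph2 was among the genes that made the component. The share of all genes that split the vehicle arrays in this way was not counted, so the split is not given as a particular trait of Jph2. Without vehicle replicates 6 and 7 the Jph2 difference was -0.74 for vehicle dTGR against SD and 0.49 for treated against vehicle dTGR. These arrays were picked for their likeness to treated dTGR and hold 2 of the 3 highest vehicle Jph2 values, so larger differences follow from the choice and are no support for them. The part of the spread among vehicle arrays in the Jph2 difference was not tested.

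**Figure D4:**
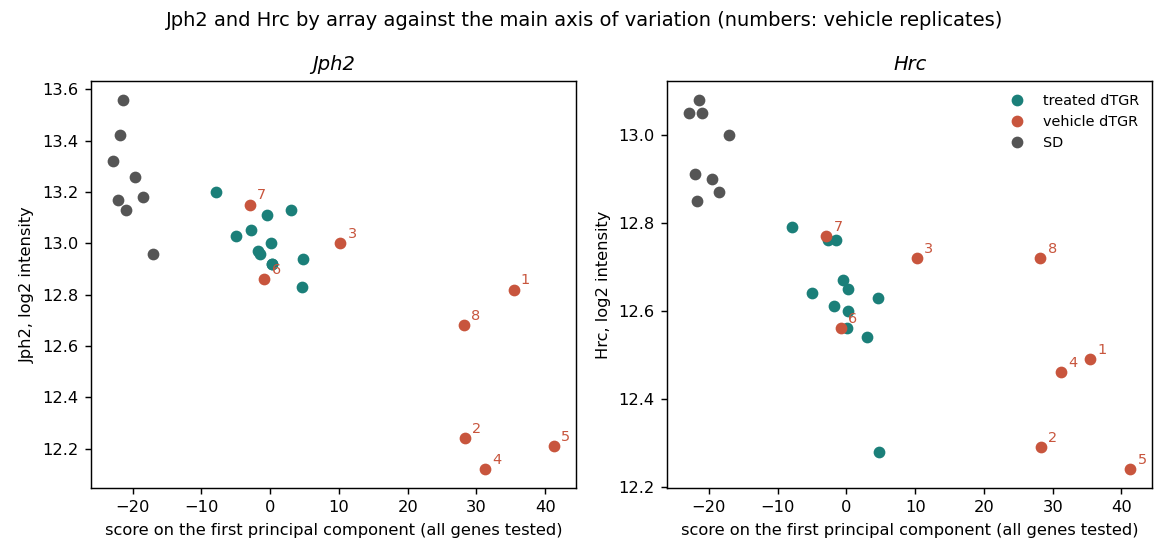
Log2 intensity of Jph2 (left) and Hrc (right) against the score of each array on the first principal component of all genes tested, 1 point per array, with vehicle replicates numbered. Vehicle replicates 2, 4 and 5 combine high scores with the 3 lowest Jph2 values, and replicates 6 and 7 lie among the treated arrays.

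After subtracting group means, the Pearson r of Hrc with Jph2 over all 28 arrays was 0.59, and the other 14 pairs of the 6 genes lay between -0.34 and 0.29. Within single groups the pairs differed. The r of Hrc with Jph2 was 0.33 within treated dTGR, 0.83 within vehicle dTGR and 0.12 within SD. That of Atp2a2 with Jph2 was 0.69 within treated dTGR, 0.10 within vehicle dTGR and 0.03 within SD, and that of Atp2a2 with Hrc was -0.10, 0.29 and 0.71 in the same groups. Pln with Sln had -0.81 within vehicle dTGR, against -0.11 over all arrays, and Sln with Jph2 had -0.68 within SD, against -0.08 over all arrays. The r of Atp2a2 with Pln was 0.16 over all arrays. These correlations are descriptions over arrays that share their normalization, each group holds 8 or 12 arrays, and the vehicle arrays fall apart on the first component.

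The genes most like each of the 6 by the same measure, among all genes tested, were named without regard to function. They are the highest of 11493 genes over 28 arrays, so high values are to some extent a product of that choice. No chance level was computed for them. For Atp2a2 they were Ccdc163 (r = 0.81), Cul9 (0.69) and Tut1 (0.65). For Pln they were Phc1 (0.66), Nup155 (0.65) and Oaz1 (0.65), and for Sln they were Eno4 (0.70), Zfand1 (0.67) and Ppp6c (0.66). For Casq2 they were Srl (0.75), which encodes sarcalumenin, a calcium binding protein of the SR, Bpnt1 (0.71) and Bri3 (0.71). For Hrc they were Rilp (0.80), Timm21 (0.80) and Sdr39u1 (0.79), and for Jph2 they were Lims2 (0.87), Paqr9 (0.85) and Sntb1 (0.84). Several of these values were uneven among the groups. The r of Casq2 with Srl was 0.37 within treated dTGR, 0.93 within vehicle dTGR and 0.80 within SD. Casq2 had an r of 0.15 with Bpnt1 and 0.12 with Bri3 within treated dTGR, against 0.91 and 0.88 within vehicle dTGR. Pln with Oaz1 had 0.61 within treated dTGR, 0.87 within vehicle dTGR and 0.09 within SD, and Jph2 with Paqr9 had 0.52, 0.98 and 0.35 in the same groups.

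Other genes of the calcium cycle were read from 7 lists of 84 genes, 45 of them measured. The lists were chosen with earlier results of these data known. A share of calls above that of all genes may therefore follow from the choice, and the shares are descriptions only. In vehicle dTGR against SD, 10 of the 45 were higher, 10 lower and 25 not called, a share called of 44.4% against 23.8% over all genes, with a median difference of -0.03. In treated against vehicle dTGR, 3 were higher, 1 lower and 41 not called (8.89% against 9.79% over all genes, median 0.03). Both counts of that comparison moved with single arrays. The 4 calls became 2 without vehicle replicate 1, 4, 5 or 8 and 7 without vehicle replicate 6 or 7, and the 1125 calls over all genes became 659 without vehicle replicate 4 and 726 without replicate 5. In treated dTGR against SD, 10 were higher, 3 lower and 32 not called (28.9% against 17.4% over all genes, median -0.0044).

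**Figure D5:**
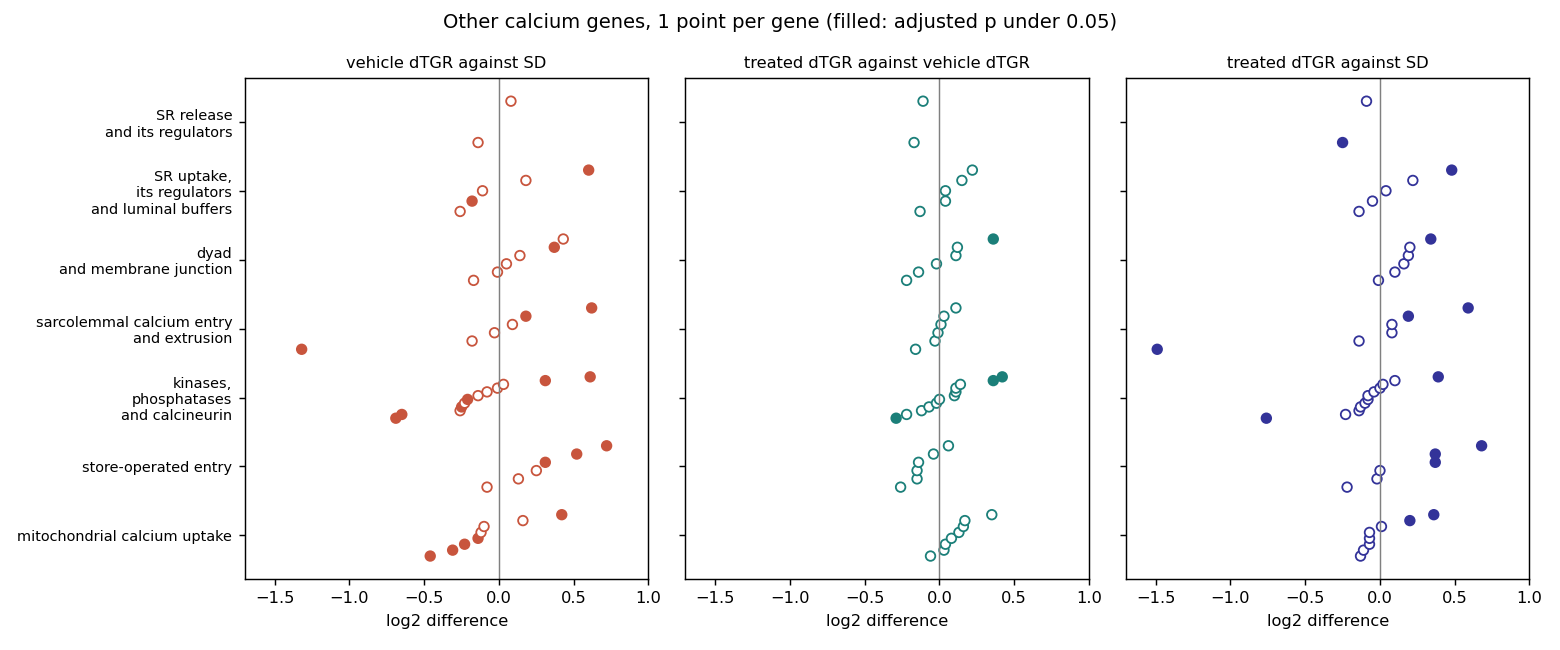
Log2 differences of the 45 other calcium genes measured (horizontal axes), grouped by list (rows) and by comparison (panels), 1 point per gene, filled where the limma adjusted p is under 0.05. The store-operated entry genes called lie to the right of 0 against SD in both dTGR groups, and the leftmost point of the outer panels is Cacna1h.

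Among genes of SR uptake and luminal buffering, 5 of 10 were measured. Casq1, the calsequestrin of skeletal muscle, was higher in vehicle dTGR than in SD by 0.60 ± 0.14 (12.12 ± 0.39 against 11.51 ± 0.32, limma adjusted p = 0.00138) and in treated dTGR than in SD by 0.48 ± 0.13 (limma adjusted p = 0.0072). Calr, which encodes the calcium-binding chaperone calreticulin, was lower in vehicle dTGR than in SD by -0.18 ± 0.06 (limma adjusted p = 0.0419). The Calr call was lost in 15 of 28 alternatives, at adjusted p of up to 0.108, which include leaving out any of SD replicates 1 to 5, SD replicate 8, or vehicle replicate 3, 4, 7 or 8. Of SR release and its regulators, 2 of 13 genes were measured. S100a1, a calcium sensor that acts on SERCA2 and the ryanodine receptor, was lower in treated dTGR than in SD by -0.25 ± 0.05 (limma adjusted p = 0.000314), and for vehicle dTGR against SD its difference was -0.14 ± 0.05 (adjusted p = 0.0585).

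Of the dyad and membrane junction genes 6 of 8 were measured. Jph1, the junctophilin known from skeletal muscle, was higher than in SD in vehicle dTGR (0.37 ± 0.11, limma adjusted p = 0.0121) and in treated dTGR (0.34 ± 0.10, limma adjusted p = 0.0139), where Jph2 was lower or not called. Bin1, which shapes transverse tubules, was higher in treated than in vehicle dTGR by 0.36 ± 0.11 (limma adjusted p = 0.0321). The Bin1 call was lost in 9 of 32 alternatives, among them leaving out vehicle replicates 1, 2, 4, 5 or 8 or treated replicates 1 or 10, at adjusted p of up to 0.0938.

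Of sarcolemmal entry and extrusion 6 of 18 genes were measured. Cacna1h, a T-type calcium channel, was lower than in SD in vehicle dTGR (-1.32 ± 0.17, limma adjusted p = 1e-06) and in treated dTGR (-1.49 ± 0.16, limma adjusted p = 3.6e-08), and treated and vehicle dTGR differed by -0.16 ± 0.16 (adjusted p = 0.61). Atp2b1, a plasma membrane calcium pump, was higher than in SD by 0.18 ± 0.06 in vehicle dTGR (limma adjusted p = 0.0321) and by 0.19 ± 0.06 in treated dTGR (limma adjusted p = 0.0168). Trpc6, a receptor-operated cation channel, was higher by 0.62 ± 0.20 in vehicle dTGR (limma adjusted p = 0.0239) and by 0.59 ± 0.19 in treated dTGR (limma adjusted p = 0.0241). Its probe was about as dim as that of Sln, at 8.04 ± 0.39 in vehicle dTGR and 7.42 ± 0.52 in SD. The vehicle call of Atp2b1 was lost when SD replicate 1, 2, 4 or 5 or vehicle replicate 2 or 4 was left out (adjusted p of up to 0.0726), that of Trpc6 when SD replicate 1 or 3 or vehicle replicate 2 was (up to 0.0669), and the treated call of Trpc6 when SD replicate 1 or 3 was (up to 0.0779). The vehicle call of Atp2b1 was also lost with a repeated quantile normalization, with array weights and with only the compared groups fitted, and that of Trpc6 in the last of these. Without vehicle replicates 6 and 7 both vehicle calls were lost, at adjusted p = 0.054 for Atp2b1 and 0.0845 for Trpc6.

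Kinases and phosphatases set the phosphorylation of phospholamban and the ryanodine receptor, and 12 of their 19 genes were measured. Against SD, vehicle dTGR had less Ppp1r1a, which encodes inhibitor-1 of protein phosphatase 1 (-0.69 ± 0.11, limma adjusted p = 1.36e-05, 10.24 ± 0.22 against 10.93 ± 0.10), and less Ppp1r3a, a glycogen-targeting subunit of that phosphatase (-0.65 ± 0.14, limma adjusted p = 0.000626). Ppp2ca, the catalytic subunit of protein phosphatase 2A, was higher by 0.61 ± 0.09 (limma adjusted p = 3.7e-06), and Ppp1cb, a catalytic subunit of protein phosphatase 1, by 0.31 ± 0.08 (limma adjusted p = 0.00666). Prkaca (-0.21) and Ppp2r1a (-0.25) were also lower, and they are named after their values were seen. In treated against vehicle dTGR, Ppp1cb was lower by -0.29 ± 0.08 (limma adjusted p = 0.0151), Prkacb, a catalytic subunit of protein kinase A, was higher by 0.36 ± 0.09 (limma adjusted p = 0.0101) and Ppp1r3a by 0.42 ± 0.13 (limma adjusted p = 0.0295). The Ppp1r3a call of that comparison was lost without vehicle replicates 1, 4, 5 or 8, at adjusted p of up to 0.068, with a difference of 0.27 without replicate 5, and with every probe on its own (0.0584) or only the compared groups fitted (0.062). Treated dTGR differed from SD in Ppp1r1a (-0.76 ± 0.10, limma adjusted p = 9.5e-07) and Ppp2ca (0.39 ± 0.08, limma adjusted p = 0.000607).

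Store-operated entry refills the SR through STIM sensors and Orai channels, and all 6 genes listed were measured. In vehicle dTGR against SD 3 were higher, 0 lower and 3 not called. Orai3 was higher by 0.72 ± 0.11 (10.04 ± 0.26 against 9.32 ± 0.23, limma adjusted p = 6.6e-06) and Orai2 by 0.52 ± 0.15 (limma adjusted p = 0.00795). The other one was Stim2 (0.31), named in both comparisons after its values were seen. Treated dTGR against SD also had 3 higher and 0 lower, with Orai3 at 0.68 ± 0.10 (limma adjusted p = 4.35e-06), Stim2 at 0.37 ± 0.07 (limma adjusted p = 0.000294) and Orai2 at 0.37 ± 0.13 (limma adjusted p = 0.0484). That Orai2 call was lost in 21 of 31 alternatives, at adjusted p of up to 0.146, among them leaving out SD replicates 1, 2, 3, 4, 6 or 8 or treated replicates 1, 2, 3, 4, 6, 8, 9, 10, 11 or 12. Between treated and vehicle dTGR none of the 6 was called.

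Of 10 genes of mitochondrial calcium uptake 8 were measured. In vehicle dTGR against SD 4 were lower and 1 higher. Micu3 (-0.46 ± 0.14, limma adjusted p = 0.0175) and Micu2 (-0.31 ± 0.08, limma adjusted p = 0.00338), which encode gatekeepers of the calcium uniporter, were lower. The Micu3 probe was about as dim as that of Sln, at 7.37 ± 0.17 in vehicle dTGR and 7.84 ± 0.14 in SD. Slc8b1, a mitochondrial sodium-calcium exchanger, was higher by 0.42 ± 0.11 (limma adjusted p = 0.00632). Mcu (-0.23) and Smdt1 (-0.14), subunits of the uniporter, were the other ones lower and are named after their values were seen. Smdt1 lost its call when SD replicate 1, 3 or 7 or vehicle replicate 5 was left out (adjusted p of up to 0.0675) and without vehicle replicates 6 and 7 (0.0511), and also with array weights (0.0676) or only the compared groups fitted (0.052). Treated dTGR against SD had 2 higher and 0 lower, Slc8b1 (0.36 ± 0.10, limma adjusted p = 0.0149) and Letm1 (0.20 ± 0.06, limma adjusted p = 0.0238). The Letm1 call was lost without SD replicates 3 or 4, at adjusted p of up to 0.0717.

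Cardiomyocyte markers were read as a description of heart muscle in the samples, and they cannot check the left ventricle label. Of 12 such genes 9 were measured, and their summed intensity ran from 438507 to 504009 in treated dTGR, from 431314 to 479041 in vehicle dTGR and from 469224 to 501528 in SD. In vehicle dTGR against SD, 1 of the 9 was higher and 4 lower, in treated against vehicle dTGR 0 were called, and in treated dTGR against SD 1 was higher and 3 lower. Of the other markers measured, vehicle dTGR against SD had 4 of 5 macrophage genes higher and 1 lower, 3 of 3 smooth muscle and pericyte genes higher, 1 of 5 endothelial genes higher, 1 of 8 fibroblast genes higher and 1 lower, 1 of 3 T cell genes lower, 2 of 2 erythroid genes lower and 1 of 3 skeletal muscle genes higher. In treated against vehicle dTGR, 3 of 8 fibroblast genes were higher and 1 lower, 1 of 5 endothelial genes was higher and 2 lower, 1 of 5 macrophage genes was higher and 1 lower, 1 of 3 skeletal muscle genes was higher, and 0 smooth muscle, T cell or erythroid genes were called. In treated dTGR against SD, 3 of 3 smooth muscle and pericyte genes, 2 of 5 macrophage genes and 1 of 8 fibroblast genes were higher, 1 of 5 endothelial, 1 of 3 T cell and 2 of 2 erythroid genes were lower, and 0 of 3 skeletal muscle genes were called. Over all genes 23.8% were called in vehicle dTGR against SD, 9.79% in treated against vehicle dTGR and 17.4% in treated dTGR against SD. The lists are short, so these counts are descriptions only. The skeletal muscle gene higher in vehicle dTGR was Myf6, at a mean of 5.99 against 5.48 in SD. Its SD mean lay below the filter level of 5.65, so it passed through the dTGR arrays and its call is no support. The part of these markers in the differences of the calcium handling genes was not tested. Array medians of intensity lay between 99.5 and 107.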

How the data were processed

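Per the submitters' processing notes the authors used RMA, with no version given in the sources used here, and deposited 1 normalized intensity per probe and array. The deposited intensity values are linear, from 1.90 to 162208, and no source used here gives their scaling. The labels name 250 ng of total RNA per sample, labelled with biotin. Of 36685 probes, 14824 carry 1 gene symbol, 829 several and 21032 none in the platform annotation.

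Log2 was taken of each value. Probes at or below the 30th percentile of mean log2 (5.65, an intensity of 50.2) were dropped and each gene was read at its brightest probe, leaving 11493 genes. A single fit with 3 group means took all 28 arrays, in R 4.3.3 with limma 3.58.1, with an intensity trend in the prior, two-sided tests and Benjamini-Hochberg adjustment over all genes. The number of arrays limits precision, and p-values measure the spread between the rats as labelled. That spread is 1 estimate per gene over the 3 groups, also where the groups spread unequally. For Jph2 the standard deviation was 0.40 in vehicle dTGR, 0.11 in treated dTGR and 0.19 in SD. The scripts were tested on simulated data. No 2 arrays were identical.

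The calcium handling genes, 7 lists of other calcium genes, 9 lists of cell type markers and the alternatives were chosen with earlier results of these data known. From each calcium list and comparison up to 2 higher and 2 lower called genes with the largest differences were named, and for each of the 6 measured genes the 3 most like it. Planned ratios with Slc8a1 and Ryr2 could not be formed. Alternatives changed the filter, normalization, pseudocount (16), probe summary, prior, array weights and groups fitted, and left out arrays. Cross-hybridization between close genes was not checked.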

Additional observations from a re-analysis of the deposited data

Results flagged for a closer look

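Casq2 in vehicle dTGR replicate 5 stood at a log2 intensity of 15.21, apart from the other 7 vehicle arrays, which ran from 15.40 to 15.56. The gap to the nearest array was 0.533 of the range of the group, just past the critical value of Dixon's test for 8 arrays. Of 12 groups of values tested this was the 1 that passed, and chance flags about 1 in 20. Without that array the Casq2 difference between treated and vehicle dTGR was 0.09 on the log2 scale (limma adjusted p = 0.217). The groups tested were those of vehicle dTGR and SD. Treated dTGR was too large a group for the critical values used and was not tested. There Hrc stood at 12.28 in replicate 8, with the next array at 12.54 and the highest at 12.79.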

How the results depend on the processing

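Atp2a2, Hrc and Jph2 kept their calls for vehicle dTGR against SD under all 12 other settings and without any 1 array, with differences from -0.23 to -0.16, -0.48 to -0.39 and -0.74 to -0.54. Those 12 settings include leaving out vehicle replicates 6 and 7, which gave the -0.74 of Jph2. These arrays were picked for their likeness to treated dTGR, so a call kept without them is no support. Atp2a2 and Hrc kept their calls for treated dTGR against SD, from -0.24 to -0.21 and from -0.35 to -0.31. Pln in that comparison kept -0.11 but lost its call with arrays centred on their medians, every probe on its own or a prior without the trend, and without 1 array ran from -0.12 to -0.10. Jph2 in that comparison (-0.24) gained a call when only these groups were fitted, and stayed uncalled in 10 of 11 settings and without any 1 array. Jph2 in treated against vehicle dTGR ran from 0.30 to 0.44 without 1 array and lost its call without 3 of them. The count of called genes of the set there ran from 0 to 1. Sln in vehicle dTGR against SD ran from -0.39 to 0.22 without 1 array and turned positive at 0.22, 0.00035 and 0.00033. The count of other calcium genes called in treated against vehicle dTGR, 4, was 2 with every probe on its own or only those groups and 10 without vehicle replicates 6 and 7, and ran from 2 to 7 without 1 array. Over all genes that comparison called 1125, and 2066 without vehicle replicates 6 and 7, 659 without vehicle replicate 4 and 726 without replicate 5. Higher counts without vehicle replicates 6 and 7 follow from how these arrays were picked. The causes were not tested. No paired analysis was possible because the labels give no pairs or shared replicate numbers.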
